A study of Mus musculus with 6 samples.

Results

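In all, 9 genes were counted clearly in every library of mouse embryonic stem cells (ESCs) kept in 2i and were nearly uncounted in every library of ESCs kept in BRD0705/PD03. They are Cd3g, Cd3d, Bhmt, Iqca, Stk33, Ccdc7a, AA467197, 1700024B05Rik and 2300002M23Rik, 9 of the 53927 gene symbols in each table, all on autosomes. They were chosen from these same values, so their difference between the media is described here with no test. RNA was sequenced from 6 libraries, 3 per medium, after removal of ribosomal RNA. All cells were wild type and grew in serum-free N2B27 medium with 1 µM PD0325901, which blocks MEK, the kinase that activates ERK. The 2i medium also held 3 µM CHIR99021, an inhibitor of GSK3 alpha and GSK3 beta alike, and the BRD0705/PD03 medium held 8 µM BRD0705, which acts selectively on GSK3 alpha. One label gives E14, a male ESC line, but the growth text describes B6D2F1 ESCs that were derived on feeders in either medium. Which cells were sequenced is not settled, and if they were the latter, derivation, feeder carry-over and medium cannot be told apart. In either case the levels of Y-linked and X-linked genes differed with the medium, as given below. Any difference in cells behind this cannot be told apart from the medium. In bulk RNA, fewer cells that express a gene and less RNA per cell cannot be told apart either.

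GSK3 marks beta-catenin for destruction, and its inhibition lets beta-catenin accumulate and relieve the repression of naive pluripotency genes by the factor TCF3. MEK inhibition holds back ERK signalling, which otherwise moves ESCs towards lineage commitment. Cells in 2i are also known for low DNA methylation, which was not measured here. Most of the 9 genes are known from other tissues: the CD3 chains from T lymphocytes, Bhmt from liver and kidney, and Iqca, Stk33 and Ccdc7a from testis or ciliated cells.

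Totals ran from 16968959 to 51180228 counts. Of 20422 genes tested with edgeR's quasi-likelihood test, 6406 (31.4%) were higher and 6138 (30.1%) lower in 2i at a Benjamini-Hochberg adjusted p under 0.05, 61.4% in all. Levels are CPM, counts per 1000000 of the scaled library total, as mean ± SD with n = 3, and fold changes are 2i over BRD0705/PD03. All 10 ESC markers were counted in both media, with Pou5f1 at 765 ± 54.9 CPM in 2i and 687 ± 6.29 CPM in BRD0705/PD03, but 5 were called higher and 4 lower in 2i. The naive factor genes Klf4 (293 ± 2.67 against 122 ± 4.33 CPM) and Nanog (625 ± 8.52 against 324 ± 20.3 CPM) were higher, and Zfp42 (116 ± 1.3 against 257 ± 9.95 CPM) and Utf1 (13.9 ± 1.75 against 36.9 ± 0.401 CPM) were lower. The libraries differed in other ways that move with the medium. The 4 Y-linked genes Ddx3y, Eif2s3y, Uty and Kdm5d summed to 308 to 329 CPM in BRD0705/PD03 and 9.5 to 11 CPM in 2i, which in 2i goes against the label of a male line, and 566 expressed X-linked genes had a median log2 fold change of 0.80. Fibroblast markers, which feeder cells would bring, summed to 1092 to 1637 CPM in BRD0705/PD03 and 622 to 651 CPM in 2i, and 16 of 18 were lower in 2i. Because they run together with the medium, their part in the results below cannot be told apart from that of the medium. It was not tested.

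As a set the 9 genes were even across the 2i libraries. Their counts summed to 2736, 8214 and 4177 in 2i replicates 1, 2 and 3, which is 162, 164 and 165 CPM. In BRD0705/PD03 replicates 1, 2 and 3 they summed to 52, 29 and 48 counts, or 1.6, 1.05 and 1.18 CPM. The groups did not overlap for any of the 9, as for 33.6% of all tested genes in the same direction and 32.4% in the opposite one, and the rule fixed this. All 9 passed the filter on low counts, through their 2i values. The lowest 2i library stood between 27.1 and 593 times above the highest BRD0705/PD03 library. Over the 3 libraries of each group, the pooled ratio of 2i to BRD0705/PD03 ran from 53.6 to 2240 with a median of 83.3, and 0.436% of all tested genes had a ratio of 53.6 or more. Intervals given with the ratios below are exact 95% intervals for counting error only.

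**Figure D1:**
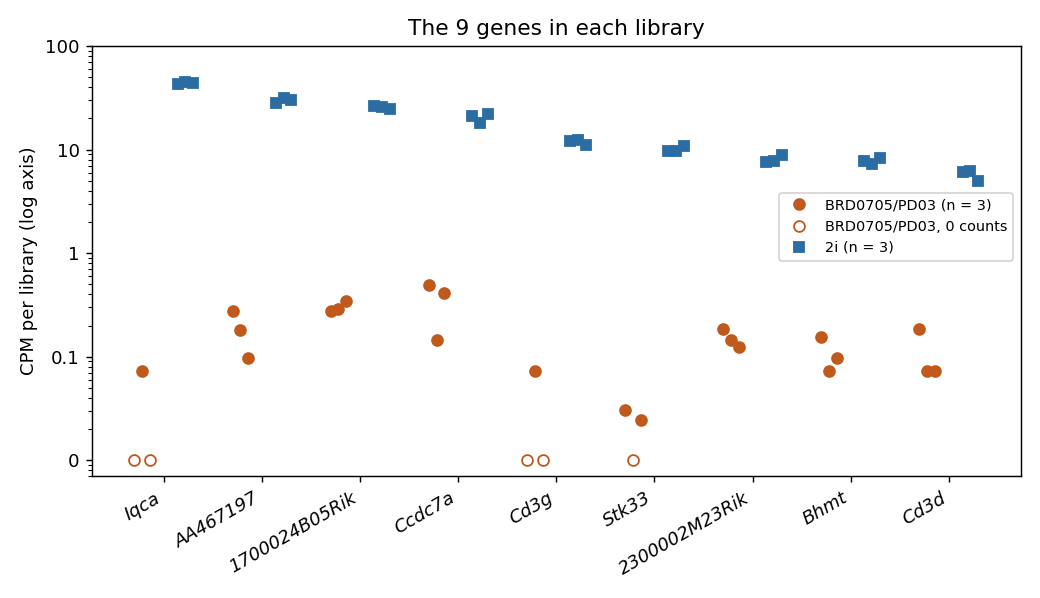
CPM of the 9 genes in each library on a log axis, with BRD0705/PD03 libraries as circles and 2i libraries as squares in replicate order from left to right; open circles are libraries with 0 counts. The 2i values lie between 5.01 and 45 CPM, and no BRD0705/PD03 value exceeds 0.493 CPM.

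Cd3g and Cd3d encode the gamma and delta chains of CD3, the signalling part of the T-cell receptor. They lie head to head on chromosome 9 of GRCm38, the assembly also called mm10, Cd3g from 44969572 to 44980431 on the minus strand and Cd3d from 44981786 to 44987339 on the plus strand. Their start sites are 1355 bases apart. The promoter windows of this pair are shown because both chains share an intergenic stretch. Beside them are the windows of Bhmt, a metabolic gene, and AA467197, the richest in CpG of the members that have a window. Each window holds 250 bases before and 50 bases after the start site, from RefSeq on GRCm38.p6, read 5′ to 3′ on the strand of the gene, with matches to the searched motifs in capitals. Gene coordinates in the text are from GENCODE, where some starts differ. AA467197 starts at 122636986 in GENCODE and 122637887 in RefSeq, so its window lies inside the gene as GENCODE places it. The Bhmt start is 93637961 in GENCODE and 93637758 in RefSeq.
Cd3g, chr9:44980382-44980681, minus strand: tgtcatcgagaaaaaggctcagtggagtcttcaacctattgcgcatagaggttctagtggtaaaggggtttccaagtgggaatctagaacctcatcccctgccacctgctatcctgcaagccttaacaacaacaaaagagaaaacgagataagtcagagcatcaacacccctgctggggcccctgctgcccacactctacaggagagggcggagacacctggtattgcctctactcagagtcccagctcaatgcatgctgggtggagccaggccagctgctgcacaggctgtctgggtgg
Cd3d, chr9:44981536-44981835, plus strand: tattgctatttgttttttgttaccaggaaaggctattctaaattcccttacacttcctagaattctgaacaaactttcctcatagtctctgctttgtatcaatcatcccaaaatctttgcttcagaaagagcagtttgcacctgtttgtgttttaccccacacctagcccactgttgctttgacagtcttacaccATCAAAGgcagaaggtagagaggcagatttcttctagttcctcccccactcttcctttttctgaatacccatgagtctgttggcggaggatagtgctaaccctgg
Bhmt, chr13:93637709-93638008, minus strand: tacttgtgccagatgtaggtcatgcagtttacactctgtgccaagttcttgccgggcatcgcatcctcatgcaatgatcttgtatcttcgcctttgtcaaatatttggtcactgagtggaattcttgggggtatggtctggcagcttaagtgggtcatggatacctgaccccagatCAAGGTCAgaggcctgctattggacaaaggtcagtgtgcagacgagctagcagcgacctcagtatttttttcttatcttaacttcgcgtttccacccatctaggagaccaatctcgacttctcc
AA467197, chr2:122637637-122637936, plus strand: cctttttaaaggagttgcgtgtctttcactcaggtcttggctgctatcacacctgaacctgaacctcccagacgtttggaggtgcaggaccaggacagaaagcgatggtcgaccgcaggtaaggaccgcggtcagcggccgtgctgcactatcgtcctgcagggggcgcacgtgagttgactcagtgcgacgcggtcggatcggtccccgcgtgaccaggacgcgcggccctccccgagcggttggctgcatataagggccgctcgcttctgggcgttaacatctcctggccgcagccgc

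A set of 8 motifs was searched on both strands of the 7 windows that RefSeq holds for these genes, which leaves out Stk33 and 1700024B05Rik. Cd3d held 1 match to CTTTGAT, a motif of the TCF/LEF partners of beta-catenin, on the minus strand at position -55 from its start site, a motif found in 3.73% of 32851 mouse promoter windows. Bhmt held CAAGGTCA, the motif of the naive factor Esrrb, on the plus strand at position -74 (1.56% of windows), and Ccdc7a held GGGNGTGG, a Klf motif, on the minus strand at position -75 (17.6%). No window held the second TCF/LEF form CTTTGAA (5.14% of windows), the Stat3 motif TTCCNGGAA (1.15%), the octamer ATGCAAAT (1.74%), TATAAA (13.6%) or TGACGTCA (1.79%). The searched motifs thus had at most 1 window each among these genes, and a match describes letters only. CpG content varied widely between the windows. Cd3d held 1 CpG, 2300002M23Rik 3, Cd3g 4, Bhmt 8, Ccdc7a 10, Iqca 13 and AA467197 29, against a median of 7 and quartiles of 3 and 20 over all windows. By their RefSeq start sites, the 7 windows therefore spanned CpG-poor and CpG-rich promoters.

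**Figure D2:**
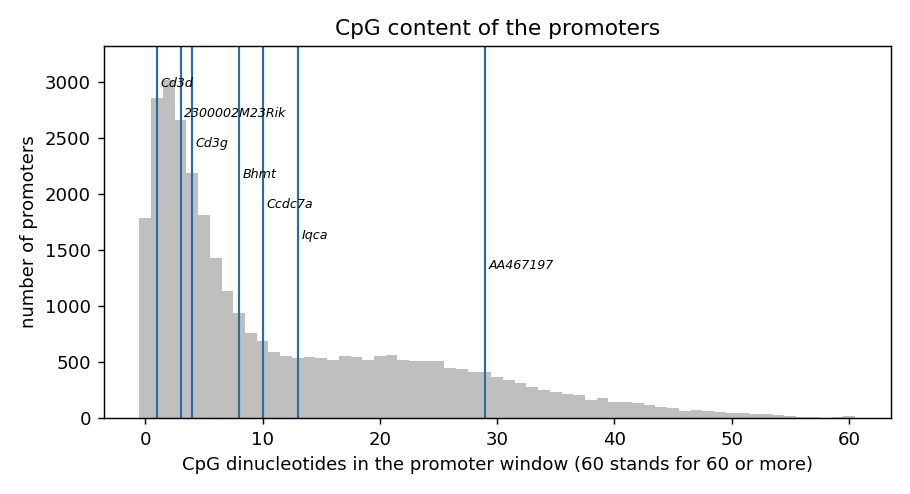
Number of CpG dinucleotides in 32851 RefSeq promoter windows of 300 bases (grey bars), with blue lines at the 7 genes that have a window. The lines run from 1 CpG in Cd3d to 29 in AA467197, on both sides of the median of 7.

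Cd3g had 206, 619 and 281 counts in 2i replicates 1, 2 and 3 and 0, 2 and 0 in BRD0705/PD03. Its level was 11.9 ± 0.694 CPM in 2i and 0.0242 ± 0.0419 CPM in BRD0705/PD03, a ratio of 604 (95% interval 167 to 4990). Both BRD0705/PD03 counts came from replicate 2. Without that library the ratio is a lower bound of 8.19 on the log2 scale, taken against 3 counts over the group, where the ratio over all libraries is 9.24, and without replicate 3 it is 8.49, against 2 counts in the 2 libraries left. Cd3d had 103, 312 and 127 counts in 2i and 6, 2 and 3 in BRD0705/PD03, or 5.78 ± 0.67 and 0.11 ± 0.0645 CPM, a ratio of 53.8 (29.8 to 108). Cd3d thus had the lowest level of the 9 and the widest relative spread in 2i, an SD of 11.6% of the mean. Per kilobase of exon the 2 chains overlapped in 2i, at 3.64 ± 0.212 CPM for Cd3g and 3.19 ± 0.369 CPM for Cd3d.

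The other genes of the T-cell receptor complex and its signalling, taken as a list, moved both ways. Cd3e, the epsilon chain gene 11.4 kb beyond Cd3d, was higher in 2i at 2.13 ± 0.313 against 0.342 ± 0.182 CPM (log2 fold change 2.70 ± 0.31 SE, edgeR adjusted p = 6.3e-07). Per kilobase it stood at 0.522 ± 0.0767 CPM in 2i, below both neighbours. Cd247, the zeta chain gene, did not pass the test, with 1.59 ± 0.2 CPM in 2i and 1.9 ± 0.582 CPM in BRD0705/PD03 (adjusted p = 0.393). Of the constant regions of the receptor itself, Trac had 1 count over the 2i group and 2 over BRD0705/PD03, Trbc1 had 1 and 0, and Trbc2 had 4 and 3. The delta constant region, Trdc, had more, with 31 and 23 counts (0.324 ± 0.032 and 0.229 ± 0.0692 CPM), and all 4 were below the filter. Of 12 tested genes of the receptor complex and its signalling, other than the members, 4 were higher and 4 lower in 2i (median log2 fold change 0.14, against -0.0003 over all tested genes). The share called, 66.7%, was close to the 61.4% of all genes. Zap70, the kinase that binds phosphorylated CD3 chains, rose from 1.36 to 4.29 CPM and Lat, its adaptor substrate, from 2.34 to 7.46 CPM in 2i, with log2 fold changes of 1.67 ± 0.16 and 1.67 ± 0.13. Lck, the kinase that phosphorylates CD3, fell by 0.62 on the log2 scale, and Themis, a regulator of thymocyte selection, fell by 4.11.

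The listed markers of T lymphocytes and other leukocytes were mostly low, and their part in the CD3 values was not tested. The list is not complete: H2-Eb1 and Tbx21, not on it and given at the end, were higher in 2i. Of 10 tested of 18 listed, 2 were higher and 6 lower in 2i (median -0.43). The share called was 80%, against 61.4% of all genes. Ptprc, which encodes the leukocyte antigen CD45, was lower in 2i at 0.31 ± 0.15 against 0.796 ± 0.292 CPM, and Coro1a, an actin regulator of leukocytes, at 1.1 ± 0.0806 against 2.73 ± 0.383 CPM. Cd6, a T-cell surface receptor, was lower at 0.119 ± 0.102 against 0.454 ± 0.145 CPM, a call lost without 2i replicate 2 (edgeR adjusted p = 0.054, range over alternatives 0.00102 to 0.054). The 2 that rose were Cd2, a T-cell adhesion receptor, at 1.23 ± 0.503 against 0.126 ± 0.0193 CPM, and Laptm5, a lysosomal membrane protein of blood cells, at 125 ± 10.1 against 41.1 ± 1.19 CPM. The summed level of the list, 142 to 161 CPM in 2i and 74 to 76.9 CPM in BRD0705/PD03, was mostly Laptm5.

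Bhmt (chromosome 13, 93616675 to 93637961) encodes betaine-homocysteine methyltransferase, which remakes methionine from homocysteine with a methyl group of betaine and leaves dimethylglycine. It had 131, 362 and 209 counts in 2i replicates 1, 2 and 3 and 5, 2 and 4 in BRD0705/PD03. Its level was 7.75 ± 0.514 against 0.108 ± 0.0417 CPM, a ratio of 69.7 (38.7 to 140). The next 2 coding genes on the chromosome act in the same pathway and were also higher in 2i. Bhmt2, a relative that uses another methyl donor, stood 17.8 kb away at 6.02 ± 0.685 against 1.29 ± 0.152 CPM (log2 fold change 2.23 ± 0.16, edgeR adjusted p = 5.9e-10). Dmgdh, whose enzyme demethylates dimethylglycine, stood 36.5 kb away at 8.11 ± 0.764 against 0.167 ± 0.0911 CPM (5.56 ± 0.23, adjusted p = 2.0e-13). Its pooled ratio of 49 put it just outside the range of the 9 genes. Arsb, beyond Dmgdh, missed the threshold with 0.594 ± 0.258 CPM in 2i and 0.95 ± 0.0581 CPM in BRD0705/PD03 (adjusted p = 0.0728), and on the other side Jmy, an actin nucleation factor, was slightly lower in 2i (-0.19 ± 0.06, adjusted p = 0.0102), a call lost without BRD0705/PD03 replicate 3 (0.0959, range over alternatives 0.000997 to 0.0959).

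The other genes of the betaine and methionine cycle moved both ways. Of 17 tested, Bhmt2 and Dmgdh included, 7 were higher and 6 lower in 2i (median 0.19). The share called was 76.5%, against 61.4% of all genes. Ahcy, which breaks down S-adenosylhomocysteine, was higher in 2i at 293 ± 12.5 against 107 ± 6.48 CPM (1.46 ± 0.05), and its relative Ahcyl1 by 0.63 ± 0.04. Aldh7a1, which makes betaine from its aldehyde, was lower (-0.62 ± 0.04). Chdh, which starts betaine synthesis from choline, had 2 counts over the 2i group and 29 over BRD0705/PD03 and was below the filter on low counts. Hepatocyte genes were mostly near 0: Alb had 0 counts in 2i and 3 in BRD0705/PD03, and Ttr had 5 and 0. Of 5 tested hepatocyte markers, 3 were higher and 2 lower (median 0.71), a share called of 100% against 61.4% of all genes. Apoa2, an apolipoprotein gene, stood at 4.51 ± 0.208 against 0.0408 ± 0.019 CPM. Apob, a lipoprotein gene, fell by 1.97 on the log2 scale in 2i, and Cps1, a urea cycle gene, fell by 3.17.

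Iqca (chromosome 1, 90042132 to 90153401, also called Iqca1) encodes a protein with an IQ motif and an AAA domain that belongs to the dynein regulatory complex of motile cilia and flagella. It had 726, 2258 and 1121 counts in 2i and 0, 2 and 0 in BRD0705/PD03. At 44.1 ± 0.985 CPM in 2i it had the highest level of the 9 and the smallest relative spread, an SD of 2.23% of the mean. The ratio of 2240 (620 to 18505) rested on 2 counts of BRD0705/PD03 replicate 2. Without that library it was a lower bound of 10.08 on the log2 scale, against 11.13 over all libraries, and without replicate 3 it was 10.38. Its relative Iqca1l was below the filter, with 4 and 7 counts over the groups.

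Stk33 (chromosome 7, 109279223 to 109439081) encodes a serine/threonine kinase needed for sperm development. It had 164, 483 and 274 counts in 2i and 1, 0 and 1 in BRD0705/PD03, a level of 10.1 ± 0.654 against 0.0184 ± 0.0163 CPM and a ratio of 503 (139 to 4157). Of its neighbours, Trim66, a chromatin reader of the tripartite motif family whose 3′ end lies 9.93 kb away, was higher in 2i at 6.03 ± 0.571 against 0.819 ± 0.0846 CPM (2.87 ± 0.17, edgeR adjusted p = 3.2e-11). Lmo1, a LIM-domain transcription cofactor on the other side, was higher at 2.32 ± 0.448 against 1.15 ± 0.151 CPM (0.98 ± 0.21, adjusted p = 0.0005). An annotated antisense transcript, 1700095J03Rik, shares 365 exon bases with Stk33 and was near 0 in both groups (0.0133 ± 0.023 and 0.0103 ± 0.0178 CPM). Of 19 calcium/calmodulin-dependent kinases and their relatives, the wider kinase family of Stk33, 8 were higher and 9 lower in 2i (median 0.04). The share called was 89.5%, against 61.4% of all genes. The neuronal kinases Dclk3 (3.87 ± 0.21) and Pnck (3.52 ± 0.21, X-linked) and the kinase Camk1d (1.03 ± 0.06) rose, and Camk2d was lower at 8.58 ± 0.85 against 19.5 ± 0.421 CPM.

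Ccdc7a (chromosome 8, 128734235 to 129065517) encodes a coiled-coil protein known from testis. It had 359, 914 and 554 counts in 2i and 16, 4 and 17 in BRD0705/PD03, or 20.5 ± 1.95 and 0.352 ± 0.183 CPM, a ratio of 53.9 (39 to 76.8). It had the most counts in BRD0705/PD03 of the 9 genes. Its copy Ccdc7b, 1.62 kb away, was higher in 2i at 2.39 ± 0.092 against 0.736 ± 0.112 CPM (1.72 ± 0.21, adjusted p = 8.7e-07). Of the words of 31 bases in the Ccdc7a transcripts, 5.05% also occur in Ccdc7b and 7.82% in the overlapping gene Gm3952, which had 0 counts in all libraries, so a part of these reads could have been divided otherwise. Itgb1, the integrin beta 1 gene 1.03 kb from the other end, did not pass the test (0.06 ± 0.06, edgeR adjusted p = 0.432), and its sign turned with upper-quartile factors (-0.00). This distance and the overlap with Gm3952 hold for the GENCODE model. RefSeq places Ccdc7a from 128980019 to 129065492, clear of Gm3952 and farther from Itgb1.

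Genes of motile cilia and sperm flagella as a list moved both ways. Of 25 tested, 8 were higher and 13 lower in 2i (median -0.42), a share called of 84%, where 31.4% of all tested genes were higher and 30.1% lower. Ccno, a cyclin-like gene of multiciliated cells, was lower at 0.436 ± 0.121 against 8.69 ± 0.637 CPM, and the ciliary transcription factor gene Rfx3 at 9.12 ± 0.276 against 20 ± 1.17 CPM. Hydin, an axonemal protein gene, was higher at 13.4 ± 1.13 against 3.02 ± 0.314 CPM and Rfx2, a transcription factor of spermatids, at 38.7 ± 0.792 against 20.8 ± 1.27 CPM. The summed level of the list overlapped between groups, at 120 to 128 CPM in 2i and 121 to 125 CPM in BRD0705/PD03.

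AA467197 (chromosome 2, 122636986 to 122641191, also called Nmes1) encodes a small mitochondrial protein related to NDUFA4, a subunit of cytochrome c oxidase. It had 473, 1578 and 769 counts in 2i and 9, 5 and 4 in BRD0705/PD03, or 30 ± 1.74 and 0.186 ± 0.0897 CPM, a ratio of 171 (108 to 289). Per kilobase of exon it had the highest level of the 9 in 2i. An exon of AA467197 carries the microRNA gene Mir147 at chromosome 2, 122640803 to 122640881. The mature strand of its 5p arm is shown because it is part of the same transcript, with its seed of bases 2 to 8 in capitals. The other arm of the hairpin is not shown, and which arm is used in these cells was not tested.
mmu-miR-147-5p: uGGAAACAuuucugcacaaacuag
The Mir147 row itself had 4 counts over the 2i group and 1 over BRD0705/PD03, and such libraries are not made to capture mature microRNAs. Slc30a4, a zinc transporter gene 40 kb away, was higher in 2i (31.2 ± 1.43 against 14.2 ± 1.48 CPM, 1.14 ± 0.07, edgeR adjusted p = 1.4e-10). Gatm, a creatine synthesis gene on the other side, missed the threshold with 1.79 ± 0.213 CPM in 2i and 2.12 ± 0.109 CPM in BRD0705/PD03 (adjusted p = 0.208).

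The relatives of AA467197 fell where it was high. Ndufa4 stood at 90.6 ± 7.74 CPM in 2i against 110 ± 2.78 CPM in BRD0705/PD03 (-0.27 ± 0.05, adjusted p = 0.00033). Ndufa4l2, a relative induced by low oxygen, stood at 0.535 ± 0.0228 against 1.02 ± 0.213 CPM (-0.90 ± 0.28, adjusted p = 0.0097), a call lost with DESeq2 (adjusted p = 0.06) and without BRD0705/PD03 replicate 2 (0.0501, range over alternatives 0.00678 to 0.06). Per kilobase in 2i, Ndufa4 stood at 65.6 ± 5.61 CPM and AA467197 at 24.9 ± 1.44 CPM. Of 15 tested nuclear subunits of cytochrome c oxidase, these relatives included, 8 were higher and 6 lower in 2i (median 0.17). The share called was 93.3%, against 61.4% of all genes. The X-linked Cox7b (0.96 ± 0.04), Cox5a (0.60 ± 0.04), the muscle form Cox7a1 (1.16 ± 0.17) and Cox8a (0.28 ± 0.05) rose.

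The gene 2300002M23Rik (chromosome 17, 35567450 to 35568952) lies in the major histocompatibility region. It had 129, 385 and 223 counts in 2i and 6, 4 and 5 in BRD0705/PD03, or 8.05 ± 0.654 and 0.151 ± 0.0315 CPM. Its ratio of 53.6 (32.3 to 96.3) was the lowest of the 9. Its nearest coding neighbours were low in both media: Cdsn, a skin adhesion gene, missed the threshold with 0.561 ± 0.183 CPM in 2i and 0.262 ± 0.162 CPM in BRD0705/PD03 (adjusted p = 0.0593, called without BRD0705/PD03 replicate 1 at 0.0206, range over alternatives 0.0206 to 0.22), and Sfta2 was below the filter (0.251 ± 0.0644 against 0.0898 ± 0.029 CPM). The mucin-like gene Mucl3, beyond them and named after its value was seen, was higher (1.52 ± 0.24 against 0.49 ± 0.277 CPM, adjusted p = 0.00022). Of 4 tested mucins, Muc1 alone was called, a share of 25% against 61.4% of all genes. Muc1 was higher (0.89 ± 0.34, edgeR adjusted p = 0.0305). This call was kept only without 2i replicate 2 among the libraries left out in turn. It was lost with DESeq2 (adjusted p = 0.129, range over alternatives 0.0214 to 0.129).

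1700024B05Rik (chromosome 14, 41943995 to 42003821) is coding in GENCODE and is listed by RefSeq as a miscellaneous RNA. It had 445, 1303 and 619 counts in 2i and 9, 8 and 14 in BRD0705/PD03, or 25.6 ± 1.04 and 0.304 ± 0.0349 CPM, a ratio of 83.3 (58.6 to 123). It is the least certain of the 9 as a single gene, because 87.6% of its 31-base words occur in transcripts of other genes, against 29.8% for Bhmt, mostly in its copy Gm5096, which had 6 counts over the 2i group and 0 over BRD0705/PD03, and 12.9% or less for the other 7. At least 5% of its words were shared by each of 36 genes, all on chromosome 14. Of these 17 passed the filter, and all 17 were called higher in 2i, against 31.4% of all tested genes. All but AC160336.1 had at most 21 counts over the BRD0705/PD03 group and passed the filter through their 2i counts. The direction of their calls was thus largely fixed. Among the 17, AC160336.1 stood at 346 ± 36.8 against 112 ± 6.52 CPM and Gm9732 at 20 ± 0.941 against 0.0387 ± 0.00935 CPM, both named after their values were seen. Their estimates share reads with each other and with 1700024B05Rik, so these are not independent observations. Its 6 nearest coding genes, among them 1700049E17Rik1 with 0 counts in all libraries and Gm6401 at 0.561 ± 0.295 against 0.124 ± 0.0418 CPM, were below the filter.

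Over all 9 loci, neighbours were called in either direction about as often as all genes, but more of them were higher than lower in 2i. Of 48 distinct coding genes within 3 positions on each side, 37 were tested, and 62.2% were called (61.4% over all genes). Of the 37, 15 were higher and 8 lower, against 31.4% and 30.1% of all genes, with a median log2 fold change of 0.24. By 2-fold or more, 9 were higher and 3 lower, against 10.3% and 10.9% of all genes. Of the nearest gene on each side, 12 were tested and 6 were higher and 1 lower (median 0.98). Of these 12, 5 were higher by 2-fold or more, against 10.3% of all genes: Ackr3, an atypical chemokine receptor gene 50.6 kb from Iqca (17.9 ± 0.118 against 4.47 ± 0.106 CPM), and Cd3e, Trim66, Bhmt2 and Slc30a4. The other nearest genes included Ube4a beside Cd3g (60.2 ± 2.19 against 57.2 ± 1.97 CPM, adjusted p = 0.205) and Asb18 beside Iqca (1.42 ± 0.0816 against 1.13 ± 0.105 CPM, adjusted p = 0.214), which did not pass the test.

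**Figure D3:**
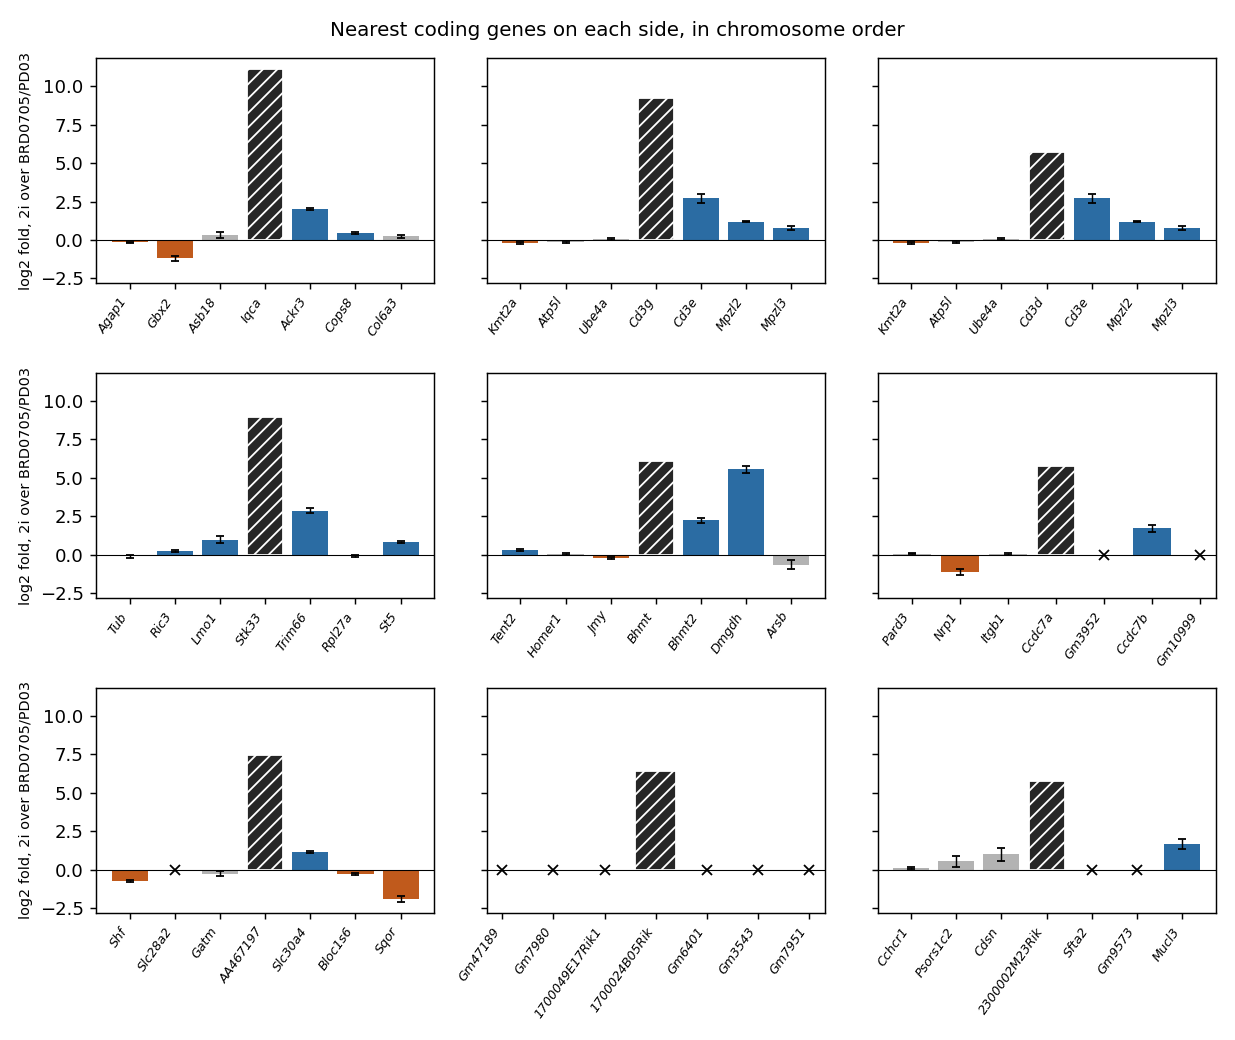
Log2 fold changes of the 3 nearest coding genes on each side of each gene, in chromosome order, with bars for SE; blue is called higher in 2i, orange called lower, grey not called, and crosses mark genes below the filter. Hatched bars are the pooled log2 ratios of the 9 genes, from 5.74 to 11.13, shown without a test, and Dmgdh beside Bhmt reaches 5.56.

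Per kilobase of exon, the order of levels in 2i was AA467197 (24.9 ± 1.44 CPM), 1700024B05Rik (16.3 ± 0.663), Iqca (10.3 ± 0.23), 2300002M23Rik (5.35 ± 0.435), Stk33 (3.79 ± 0.246), Cd3g (3.64 ± 0.212), Cd3d (3.19 ± 0.369), Ccdc7a (3.11 ± 0.297) and Bhmt (1.35 ± 0.0892). The 3 libraries of each gene overlapped with those of the next in order from Stk33 to Cd3g, from Cd3g to Cd3d and from Cd3d to Ccdc7a, and in no other pair of neighbours. Relative spread in 2i was 2.23% to 11.6% of the mean, with a median of 6.5%. Over 6184 other tested genes with 2i levels between 5.78 and 44.1 CPM the median was 5.47% and the quartiles 3.3% and 8.38%. The 9 genes thus varied between 2i libraries about as other genes of like level did.

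Not every gene of this kind was among the 9. Of 20397 autosomal coding genes in the tables, 20 were at or above the lowest member both in 2i level (5.78 CPM) and in ratio (53.6), the 9 genes and 11 more. The 11 were Gm13128, Pramef17, Gm9732, Pramel7, Pramel6, Cpvl, Slfn4, Tbx21, Slc13a5, H2-Eb1 and Slfn8, given here because of their values. Pramef17, with 0 counts over the BRD0705/PD03 group, was at least 1171-fold higher in 2i. With the media exchanged, 12 genes met the same limits. Just outside the ratio stood Etv4 (50.2), an ERK-responsive transcription factor gene, and Dmgdh (49), and just below the level stood Apoa2 (4.51 CPM). The scatter of levels in the 2 media shows the 20 genes apart from the diagonal on which most genes lie.

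**Figure D4:**
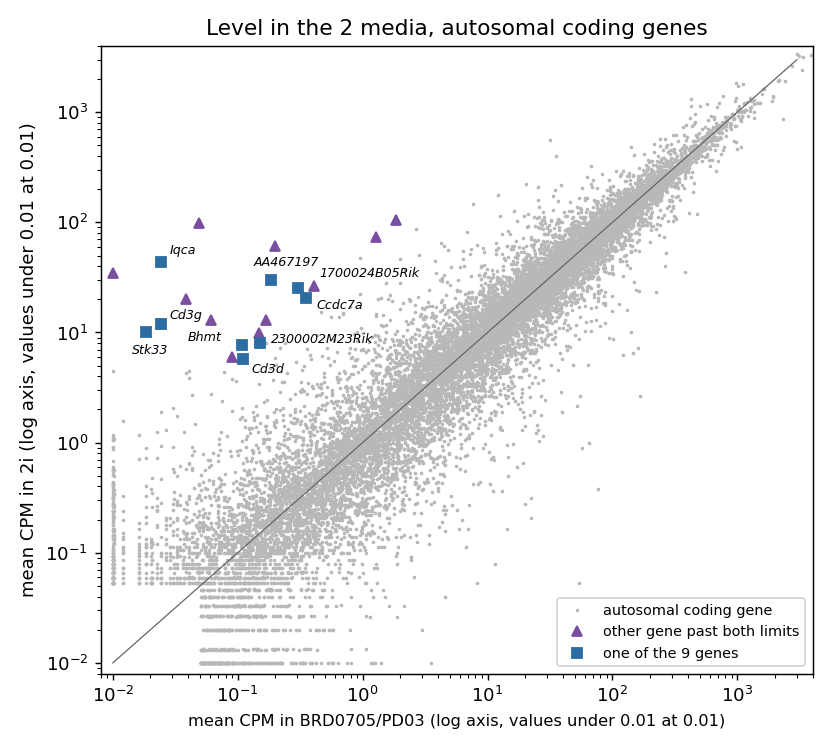
Mean CPM in 2i against mean CPM in BRD0705/PD03 on log axes for autosomal coding genes with at least 0.05 CPM in one medium, with equal levels on the line. Squares are the 9 genes and triangles the 11 others at or above 5.78 CPM in 2i and a ratio of 53.6.

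The genes most like the 9 in pattern were sought over the 6 libraries, by the root mean square difference between log2(CPM + 0.5) profiles centred on their own means and the median profile of the 9. Among 14213 tested autosomal coding genes, the closest 8 were Cpvl (0.12), Pramel6 (0.13), Meis2 (0.14), Ak4 (0.18), Dazl (0.20), Slfn4 (0.22), Plagl1 (0.23) and Slc13a5 (0.25). The 9 genes themselves lay at 0.08 for Stk33 to 0.99 for Iqca, and the median of all candidates was 2.22. With 2 groups of 3 libraries, this distance mostly measures the size of the step between media. Ak4, an adenylate kinase gene, stood at 564 ± 27.2 against 31.9 ± 1.33 CPM and Meis2, a homeobox gene, at 46.6 ± 1.23 against 2 ± 0.167 CPM. A similar step on this scale thus occurred in genes that stayed well counted in BRD0705/PD03. The added 0.5 CPM shrinks the steps of genes near 0. By fitted log2 fold change, Ak4 (4.14 ± 0.05) and Meis2 (4.56 ± 0.08) were below the lowest pooled log2 ratio of the 9, 5.74.

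**Figure D5:**
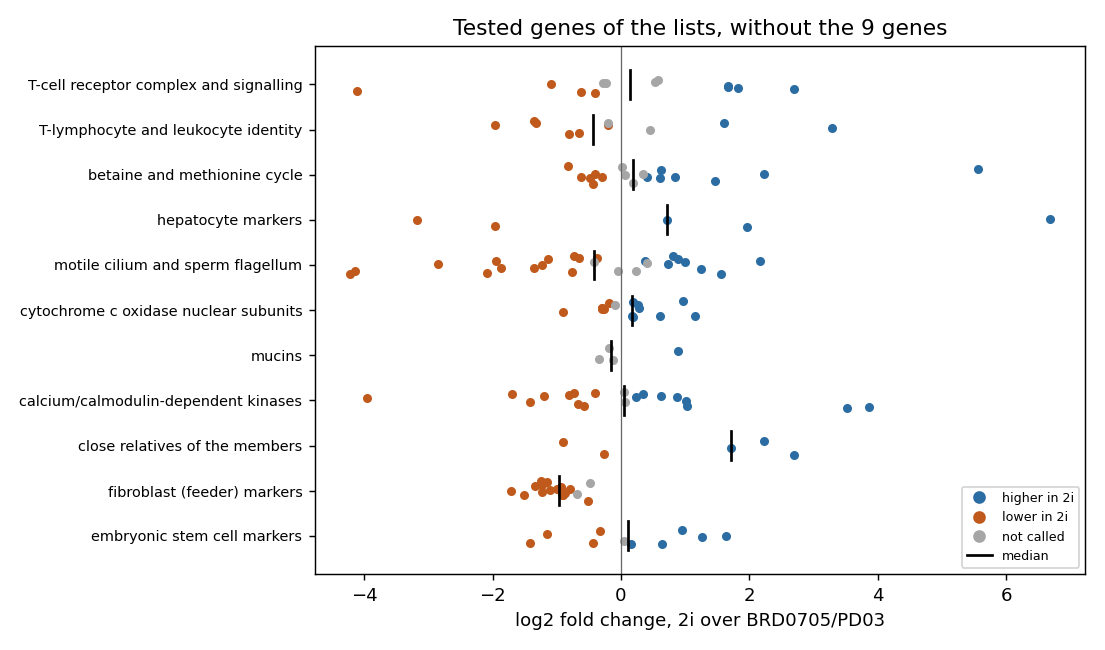
Log2 fold changes, 2i over BRD0705/PD03, of the tested genes of each list without the 9 genes; blue is called higher in 2i, orange called lower and grey not called, and black lines are medians. The fibroblast list lies to the left with a median of -0.97, and the lists tied to the 9 genes spread to both sides of 0.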

How the data were processed

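Each of the 6 libraries has a table of gene symbols with estimated counts. The submitters' processing notes list Salmon and mm10, and the deposited whole numbers were taken as Salmon's estimated counts, rounded by the authors and not scaled between libraries. The annotation, strand setting and summing of transcripts were not given in the sources used here. Groups and replicate numbers came from titles. Whether each library had its own culture is not stated, and p-values then reflect library-to-library spread, which may be technical. Libraries of a group differed beyond counting noise (chi-square per degree of freedom 2.77 to 9.84 over genes with at least 20 counts).

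The test across genes was that of edgeR 4.0.16 under R 4.3.3 (quasi-likelihood, filterByExpr, TMM scaling, robust, group only, two-sided), with Benjamini-Hochberg adjustment over 20422 genes and a threshold of 0.05, after a check on simulated data. SE is the log2 fold change over the square root of F. CPM use scaled library sizes. Pooled ratios divide summed counts by summed library sizes, with exact 95% intervals, and 3 counts stand for a group with 0. Coordinates, exon lengths and neighbours came from GENCODE M21 (GRCm38), promoters and microRNAs from RefSeq. Words of 31 bases were compared between GENCODE transcripts. The 9 genes and the lists were chosen with earlier results of these data known. Named were the 9 genes, the nearest coding gene on each side, close relatives, up to 4 called genes per list with the smallest p, and the 8 genes most alike in pattern; other genes with values, among them Pou5f1, Ptprc, Cd247, Arsb, Chdh, Alb, Ttr, Trdc, Trac, Trbc1 and Trbc2, were named after their values were seen. Some genes of the lists are not reported here by name. A list of mucins was kept although no tie to a member is known. Tried in their place were DESeq2 1.42.0, upper-quartile or median-ratio scaling, no filter or a mean of 1 CPM, a block for the replicate number, omission of single libraries, omission of sex-chromosome genes, thinning to 16968959 counts and other numbers of neighbours.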

Additional observations from a re-analysis of the deposited data

How the results depend on the processing

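Every one of the 9 genes stayed far higher in 2i under each alternative run. Their choice from these same counts largely fixed this, so only the size of the ratios is described. Leaving out each library in turn gave log2 ratios of 10.08 to 11.13 for Iqca, 8.19 to 9.27 for Cd3g, 8.51 to 9.41 for Stk33, 7.03 to 7.85 for AA467197, 6.31 to 6.50 for 1700024B05Rik, 5.95 to 6.43 for Bhmt, 5.46 to 6.32 for Cd3d, 5.46 to 6.0 for Ccdc7a and 5.58 to 5.92 for 2300002M23Rik. Thinned to equal totals, they were 10.13 for Iqca, 8.26 for Cd3g, 6.76 for AA467197, 6.04 for 1700024B05Rik, 5.83 for Bhmt, 5.02 for Cd3d, 6.20 for Ccdc7a and 5.35 for 2300002M23Rik, and each ratio rests on at most 37 counts over the BRD0705/PD03 group. With the replicate number as a block (a ratio stratified by number), Iqca was at 10.58, Cd3g at 8.68 and Stk33 at 9.27. That block gave 6376 genes higher and 6059 lower in 2i, and among the named genes it changed the call of Cdsn only (log2 fold change 1.15, edgeR adjusted p = 0.0254, range over alternatives 0.0206 to 0.22). Replicate numbers gave no sign of pairing: deviations of libraries with the same number correlated at -0.0421, 0.0745 and -0.0473, where other pairs ran from -0.0991 to 0.127. With 3 libraries per group, such values cannot show whether libraries of the same number were handled together.

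Neighbours called higher and lower were 6 and 1 with 1 gene on each side and 25 and 14 with 5, since fewer or more genes were tested. With a mean of at least 1 CPM fewer genes of the lists were tested, and leukocyte genes higher numbered 1, hepatocyte markers lower 1, calmodulin-dependent kinases lower 5, close relatives lower 1 and mucins higher 0. DESeq2 called 1 close relative lower and 0 mucins higher, and without a filter 0 mucins were higher; the cause was not tested. Leaving out each library gave 0 to 1 mucins higher and 1 to 2 close relatives lower. Itgb1, not called, turned to -0.00 with upper-quartile factors and ranged from -0.02 (without BRD0705/PD03 replicate 1) to 0.11 when each library was left out. Of 60 named genes tested, 54 kept direction and call under each alternative in which they were tested.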

Other observations

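Of the 11 other near all-or-none genes, chosen for their values, 4 not described above are given here as values. H2-Eb1, which encodes a class II histocompatibility chain, stood at 73.8 ± 5.8 CPM in 2i and 1.28 ± 0.186 CPM in BRD0705/PD03. Tbx21, a T-box transcription factor gene, stood at 5.95 ± 0.782 against 0.0896 ± 0.0248 CPM. Slfn8 and Slfn4, of the Schlafen family, stood at 105 ± 4.59 against 1.84 ± 0.233 CPM and at 9.89 ± 0.359 against 0.147 ± 0.038 CPM.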
